A study of Mus musculus with 6 samples.

Results

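The interferon regulatory factors (IRFs) are a family of transcription factors, and 8 of its genes, Irf1, Irf2, Irf3, Irf4, Irf5, Irf7, Irf8 and Irf9, were listed by name for comparison between prostate cancer cells with and without introduced PIM1. Of the 8 genes, 7 had a probe set annotated to that gene alone, among 22180 genes tested in all, and Irf8 had 2 such probe sets. The only probe set for Irf5 also carries a second gene symbol, so Irf5 was not analysed here. The cells were prostate epithelial cancer cells from Rb1F/F:Trp53F/F:PB-Cre4 mice, in which both tumour suppressor genes carry floxed alleles and Cre is driven by a probasin promoter of prostate epithelium. Both groups share this background and the same growth medium. The 3 EV samples were infected with an empty lentiviral vector and the 3 PIM1 samples with a lentivirus for PIM1, a serine/threonine kinase. The labels give neither the age or number of mice, nor whether a line is 1 clone, nor the species of the PIM1 insert, and they do not say that the samples of a group are separate cultures, so a p-value here reflects sample-to-sample spread that may be technical.

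IRFs share an amino-terminal DNA-binding domain and recognise GAAA repeats in the interferon-stimulated response element (ISRE) of many antiviral genes. IRF3 and IRF7 are phosphorylated downstream of nucleic acid sensors and switch on type I interferon genes, IRF9 joins STAT2 in the complex that answers type I interferon, and IRF1 activates genes that IRF2 can repress at the same elements. IRF4 and IRF8 act mainly in lymphocytes, macrophages and dendritic cells, often beside an Ets-family partner. In epithelial cells the best known roles of the family are in antiviral defence and in the response to gamma interferon.

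Several of these genes are themselves known targets of interferon or NF-kappaB signalling, and so the sequence before their start sites is shown for 4 of them. Irf1 and Irf2 are shown because they rose and hold matches, Irf9 because its rise was the largest of those measured, and Irf8 because it holds matches and did not pass the test. Sequences are the 250 bases before an annotated start in RefSeq (GRCm38.p6), on the gene's strand, 5′ to 3′, and capitals mark a match on either strand to an ISRE (GAAANNGAAA), a gamma-activated site (GAS, TTCNNNGAA, bound by STAT dimers) or a kappaB site (by its consensus of 10 bases).
Irf1, chr11:53769764-53770013, + strand: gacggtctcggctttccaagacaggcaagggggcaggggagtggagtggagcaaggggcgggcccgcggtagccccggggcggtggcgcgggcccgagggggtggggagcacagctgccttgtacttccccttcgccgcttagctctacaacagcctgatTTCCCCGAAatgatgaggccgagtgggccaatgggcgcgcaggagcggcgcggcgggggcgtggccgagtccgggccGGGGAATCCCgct
Irf2, chr8:46739495-46739744, + strand: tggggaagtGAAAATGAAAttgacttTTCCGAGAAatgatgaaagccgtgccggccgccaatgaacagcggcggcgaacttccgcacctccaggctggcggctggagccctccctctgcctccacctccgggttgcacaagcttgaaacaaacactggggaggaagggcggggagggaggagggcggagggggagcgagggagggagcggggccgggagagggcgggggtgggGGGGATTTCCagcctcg
Irf8, chr8:120736108-120736357, + strand: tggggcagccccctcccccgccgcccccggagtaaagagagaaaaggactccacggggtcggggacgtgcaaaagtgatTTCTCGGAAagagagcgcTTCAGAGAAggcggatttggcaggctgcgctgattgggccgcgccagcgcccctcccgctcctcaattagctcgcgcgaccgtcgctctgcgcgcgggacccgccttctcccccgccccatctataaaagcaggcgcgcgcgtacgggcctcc
Irf9, chr14:55603735-55603984, + strand: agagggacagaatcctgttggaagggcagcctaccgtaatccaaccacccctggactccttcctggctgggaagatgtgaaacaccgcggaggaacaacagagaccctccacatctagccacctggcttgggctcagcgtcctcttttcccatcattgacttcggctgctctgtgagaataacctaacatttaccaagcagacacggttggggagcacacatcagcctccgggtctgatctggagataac

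In the Irf1 window the GAS match starts 90 bases before the start site and the kappaB match 13 bases before it. The Irf2 window holds all 3 kinds, an ISRE match starting 241 bases, a GAS match 224 bases and a kappaB match 17 bases before the start. The first Irf8 window holds 2 GAS matches, 171 and 153 bases before the start. No match of any of the 3 motifs lies in the Irf9 window. No 2 of these matches overlap each other. The 8 genes have 11 annotated starts in the table, and of these windows 1 held an ISRE, 3 a GAS and 2 a kappaB match. Over all 32851 windows of the same length the shares were 2.98% for ISRE, 7.02% for GAS and 3.90% for kappaB. A match describes the letters only, and a missing match says only that they are not in this window. Binding of a factor was not measured.

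Signals are the authors' deposited values on a log2 scale, 1 per probe set and array, and a difference is PIM1 minus EV. Pim1 itself read 5.26, 6.25 and 5.23 with the empty vector and 7.11, 6.89 and 6.97 with PIM1, so that the groups did not overlap. A second, dimmer Pim1 probe set read 2.05, 2.27 and 2.64 in EV and 3.06, 3.32 and 2.61 in PIM1, where the groups overlapped, and was not called (adjusted p = 0.0933 over all probe sets). Whether either probe set measures the introduced sequence is not known. Arrays of 1 group correlated at 0.990 or higher over all genes and arrays of different groups at 0.967 or lower, and none of the 6 stood apart from its group. Of the epithelial markers, Epcam read 2.50 ± 0.026 (SD, n = 3) in EV and 2.35 ± 0.061 in PIM1, under the median of 3.50 over all probe sets of the EV arrays. Krt18, the keratin of simple epithelium, read 9.14 ± 0.060 in EV and 4.90 ± 0.12 in PIM1 and fell. Of 11 measured epithelial markers 0 rose and 3 fell (Krt18, Cdh1 and Krt19, the last not passing in 6 of 13 alternatives). Thus 27.3% passed, close to the 27.0% of all genes. In EV, Krt18, Cdh1, Krt8, Krt19 and Cldn4 lay above that median of 3.50. Epcam, Krt14, Trp63, Esrp1, Cldn7 and Ocln lay under it. By these EV levels the label of epithelial cells is borne out by some of its markers and not by others.

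Irf9, Irf7, Irf2, Irf3 and Irf1 rose in PIM1 cells, in this order of size, and Irf4 and Irf8 did not pass the test. Thus 5 of the 7 measured factors were higher and 0 were lower (adjusted p under 0.05 in limma's moderated test, with Benjamini-Hochberg adjustment over all 22180 genes). Over all genes 27.0% passed this test, 16.1% higher and 10.9% lower. With median centring of each array, 73.5% of the calls over all genes were higher, against 59.6% for the values as deposited, and the 5 factors still passed. The groups did not overlap for 6 of the 7 factors, against 43.2% of all genes. The median difference was 0.74 for the 7 factors and -0.05 for all genes. A rise of at least 2-fold was called for Irf9 alone among them. Over all genes 4.55% rose and 6.26% changed by at least 2-fold with the call. Bulk RNA cannot tell fewer cells of a type from less RNA per cell.

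Some markers of other cell types also differed between the groups. Over all genes 16.1% rose and 10.9% fell. Of 12 fibroblast markers 10 rose and 1 fell, which was Fap and did not pass in 4 of 13 alternatives. Among those that rose were Dcn, the matrix proteoglycan decorin, from 4.85 ± 0.094 to 10.33 ± 0.16 and Pdgfra, a platelet-derived growth factor receptor, from 6.23 ± 0.28 to 10.93 ± 0.11. Other markers that rose were already high in EV, such as Col3a1 (9.96), Col1a1 (8.94), Postn (8.67) and Pdgfrb (8.55). Lum rose from a low 1.78, and Thy1 did not pass. The log2 signals of the 12 fibroblast markers summed to 75.5 to 75.9 on the EV arrays and 97.5 to 98.3 on the PIM1 arrays. The 11 epithelial markers summed to 42.3 to 44.5 in EV and 36.4 to 36.8 in PIM1. Of 10 endothelial markers 0 rose and 0 fell (1 fell without EV replicate 3), and their sums were 27.9 to 29.3 and 27.0 to 28.4. The median of their EV means was 2.94, under the EV array median of 3.50, where a missing call says little. No probe set on any array read under 0.34, so the absence of a 0 does not show that a marker was expressed. The part of any of these markers in the IRF differences was not tested.

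**Figure D1:**
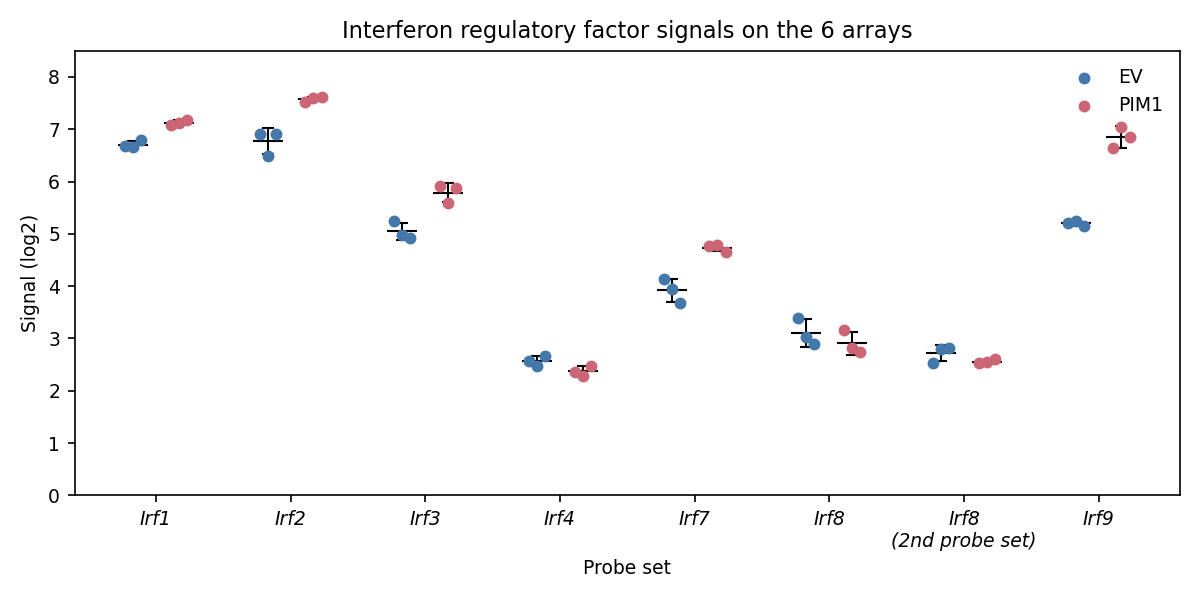
Log2 signal of the 8 probe sets of 7 interferon regulatory factors on 3 EV arrays (blue) and 3 PIM1 arrays (red); each point is 1 array, and black bars give the mean and SD. The PIM1 points lie above all EV points for Irf1, Irf2, Irf3, Irf7 and Irf9, whereas those of Irf4 lie just below and those of Irf8 overlap; heights of different probe sets are not comparable.

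Irf9 encodes the DNA-binding subunit of the interferon-stimulated gene factor complex. EV cells gave signals of 5.21, 5.24 and 5.14 and PIM1 cells gave 6.64, 7.05 and 6.86. All PIM1 arrays lay well above all EV arrays, and the spread was wider in PIM1 (SD 0.21) than in EV (SD 0.049). The difference of 1.65 (standard error 0.12, limma adjusted p = 4.04e-05) is a 3.13-fold rise, with a 95% interval of 1.36 to 1.93 on the log2 scale. This interval lies above those of the other 6 measured factors, whose highest upper bound was 1.12 for Irf7. Differences of 2 genes were not tested against each other.

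Stat2, whose product binds IRF9 in that complex, read 5.01, 4.81 and 5.16 in EV and 6.79, 6.81 and 6.76 in PIM1. It rose by 1.80 (limma adjusted p = 1.71e-05), again with no overlap of the groups.

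Irf7 is the factor that amplifies type I interferon production and is itself interferon-inducible in many cells. It read 4.13, 3.95 and 3.68 in EV cells and 4.77, 4.79 and 4.65 in PIM1 cells. The groups were separate, and the EV arrays were the more scattered (SD 0.22 against 0.075). Irf7 rose by 0.82 (standard error 0.13, 1.76-fold, limma adjusted p = 0.00241). Irf3, the constitutively present factor that is activated by phosphorylation rather than by new synthesis, read 5.24, 4.99 and 4.93 in EV and 5.91, 5.58 and 5.87 in PIM1. The lowest PIM1 array still lay above the highest EV array. Irf3 rose by 0.74 (standard error 0.13, 1.67-fold, limma adjusted p = 0.00440). RNA signals carry no information on the phosphorylation of either protein.

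Irf1 and Irf2, which compete for the same elements as activator and repressor, both rose. Irf2 read 6.92, 6.49 and 6.91 in EV cells and 7.53, 7.59 and 7.61 in PIM1 cells. The second EV array was the lowest, and the PIM1 arrays agreed closely (SD 0.044). Its difference was 0.80 (standard error 0.13, 1.74-fold, limma adjusted p = 0.00300). Irf1 read 6.68, 6.65 and 6.79 in EV and 7.08, 7.12 and 7.18 in PIM1. The groups did not overlap, but the difference of 0.42 (standard error 0.096, 1.34-fold, limma adjusted p = 0.0133) was the smallest among the factors that rose. The Irf1 call is close to the threshold: after quantile normalization it was 0.29 with adjusted p = 0.0504, and without PIM1 replicate 2 it was 0.42 with adjusted p = 0.0502. Over its 14 alternatives the adjusted p of Irf1 ran from 0.00327 to 0.0504.

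**Figure D2:**
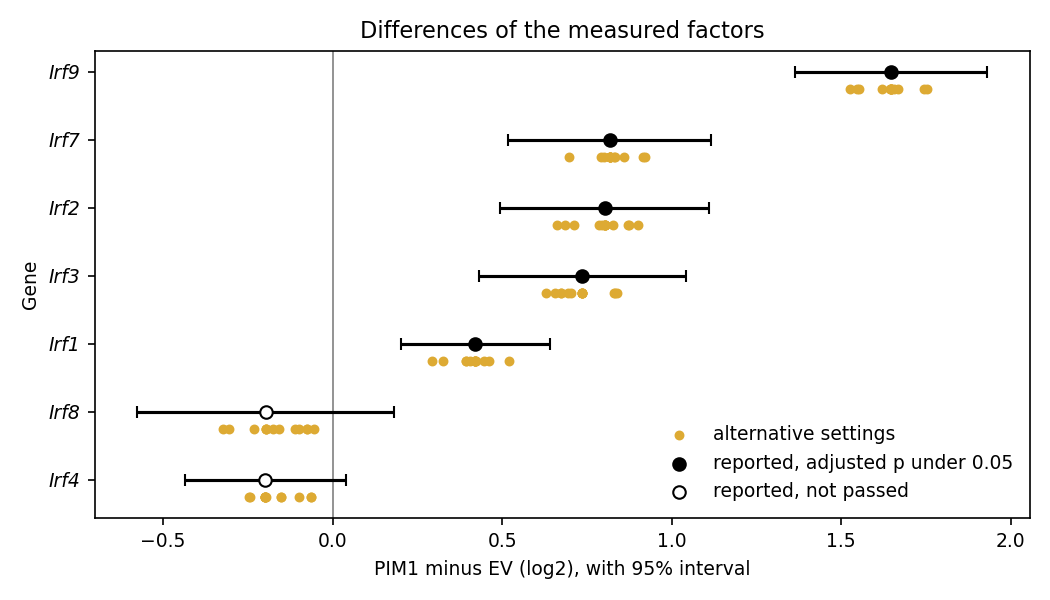
Difference between PIM1 and EV (log2) of the 7 measured factors with 95% intervals; filled circles passed adjusted p under 0.05 and open circles did not, and yellow points below each give the value under the alternative settings. Irf9 sits apart at 1.65, Irf7, Irf2 and Irf3 lie between 0.74 and 0.82, Irf1 lies at 0.42, and the intervals of Irf4 and Irf8 include 0.

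Irf4 and Irf8, the factors of the lymphoid and myeloid lineages, were not called. Irf4 read 2.57, 2.48 and 2.66 in EV and 2.37, 2.28 and 2.47 in PIM1. The PIM1 arrays lay below the EV arrays without overlap, but the difference was -0.20 with a 95% interval of -0.44 to 0.040 (limma adjusted p = 0.200). The brighter Irf8 probe set read 3.39, 3.03 and 2.89 in EV and 3.16, 2.82 and 2.73 in PIM1. Here the groups overlapped, and the difference was -0.20 with a 95% interval of -0.58 to 0.18 (limma adjusted p = 0.419). The second Irf8 probe set read 2.54, 2.80 and 2.81 in EV and 2.53, 2.55 and 2.60 in PIM1, with a difference of -0.16 (adjusted p = 0.413 over all probe sets). All 3 probe sets lay under the array medians of 3.50 in EV and 3.40 in PIM1, where signal holds an unknown share of background, so a missing call does not show that these genes were unaltered. No leukocyte marker was called higher either. Of 15 measured markers of macrophages, dendritic cells and lymphocytes, 0 rose and 1 fell. Thus 6.67% passed, against 27.0% of all genes. The median of their EV means was 2.92, under the EV array median of 3.50, where a missing call says little. The one that fell was Csf1r, the macrophage growth factor receptor, by 1.35. Without EV replicate 1, 2 or 3 the count that fell was 2, and with the replicate number as a block it was 3. Ptprc, the pan-leukocyte surface protein, read 2.02, 1.95 and 2.24 in EV and 1.89, 1.99 and 1.73 in PIM1. The log2 signals of the 15 markers summed to 48.2 to 49.3 on the EV arrays and to 41.6 to 44.4 on the PIM1 arrays.

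Among 10 genes for DNA-binding partners of IRFs and IRF2-binding co-repressors, 2 rose and 1 fell (median difference 0.045). That is 30% passing, near the 27.0% of all genes, and nothing is read from this count. Batf2 and Batf3, basic leucine zipper proteins that can pair with IRF4 and IRF8, rose by 0.74 and 0.62 (limma adjusted p = 0.00994 and 0.0162). Without PIM1 replicate 2 or 3 the Batf3 adjusted p was 0.0582 and 0.0559. Ets1, an Ets-family factor, fell by 0.81 (limma adjusted p = 0.00119). Spi1, the myeloid Ets partner of IRF4 and IRF8, read 3.54 ± 0.18 in EV and 3.49 ± 0.089 in PIM1 (limma adjusted p = 0.769), and the B-lymphoid Spib differed by 0.25 (limma adjusted p = 0.164). The co-repressor genes Irf2bp1, Irf2bp2 and Irf2bpl did not pass.

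Of 17 measured sensors, adaptors and kinases upstream of IRF3 and IRF7, 12 rose and 0 fell, with a median difference of 0.56 beside -0.05 for all genes. The shares over all genes were 27.0% passing and 16.1% higher. With 1 array left out, 4167 to 5369 of the 22180 genes passed. Tmem173, which encodes the adaptor STING, rose from 8.10 ± 0.11 to 9.17 ± 0.054 (limma adjusted p = 1.54e-04). The RNA helicase sensor genes Ddx58 and Ifih1 rose by 0.78 and 1.45, and Zbp1, a sensor of Z-form nucleic acids, by 1.12. The adaptor genes Ticam1 and Traf6 were among the 5 that did not pass (limma adjusted p = 0.361 and 0.817). The count is not stable, since 6 of the 17 passed when all probe sets were tested and 5 to 9 passed when single arrays were left out (5 without PIM1 replicate 3, 6 without EV replicate 3, 7 without PIM1 replicate 2).

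Of 11 measured interferon genes, 1 rose and 2 fell, with a median difference of -0.16. Thus 27.3% passed, close to the 27.0% of all genes, and nothing is read from this count. Ifnb1, the gene for beta interferon and a main target of IRF3, read 1.95, 1.98 and 2.19 in EV and 1.62, 1.54 and 1.83 in PIM1. It lay low on every array and fell by 0.38 (limma adjusted p = 0.0492), and it did not pass in 10 of 13 alternatives. Ifna4 fell by 1.16 and Ifnab rose by 0.65 from a low signal of 1.79 ± 0.20 (limma adjusted p = 3.24e-04 and 0.00576). Alpha interferon genes are near-identical copies, and their probe sets may share signal. Ifng, the gamma interferon gene, differed by -0.16 (limma adjusted p = 0.477).

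Interferon receptor and JAK-STAT genes rose in 8 of 11 measured cases and fell in 0, with a median difference of 1.13. The shares over all genes were 16.1% higher and 10.9% lower. Besides Stat2, Ifnar2, a chain of the type I interferon receptor, rose from 7.61 ± 0.085 to 9.29 ± 0.080 (limma adjusted p = 1.26e-05). Jak2, a kinase of the gamma interferon receptor, rose by 1.55, and Stat3 by 1.32. This count was 8 in each fit that left out 1 array.

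Many of the genes that IRFs are known to drive rose, and others did not pass. Among all genes 16.1% rose. Of 22 measured ISRE-driven interferon-stimulated genes, 15 rose and 0 fell, with a median difference of 0.87. Oasl2, an oligoadenylate synthetase-like protein, read 3.04 ± 0.13 in EV and 5.69 ± 0.10 in PIM1 (limma adjusted p = 2.03e-06). Usp18 rose by 2.66, Ifit1, which binds foreign RNA, by 2.87, and Rtp4 by 2.09. Mx1, Mx2, Ifit3, Oas3, Rsad2, Eif2ak2 and Ifi35 did not pass, and Ifit3 differed by -0.41. Of 24 measured genes of the gamma interferon response and antigen presentation that are linked to IRF1, 19 rose and 0 fell, with a median difference of 1.35. The guanylate-binding protein gene Gbp7 rose from 3.39 ± 0.012 to 6.98 ± 0.20 (limma adjusted p = 6.39e-07). Vcam1, an adhesion molecule, rose by 3.54, Nos2, the inducible nitric oxide synthase, by 3.04, and Casp4, an inflammatory caspase, by 2.90. Ciita, Psmb10, Socs1, Casp1 and Psme1 did not pass, and Ciita differed by -0.47. The Irf1 difference itself was 0.42. Targets of single factors were not separated by any perturbation here, and many of these genes also answer to STAT and NF-kappaB proteins. Parts of both lists had been described as higher in these arrays before the lists were drawn up, so they are no independent evidence of direction.

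Negative regulators of interferon signalling rose in 6 of 13 measured cases and fell in 1, with a median difference of 0.34. Over all genes 16.1% rose and 10.9% fell. The list count varied, with 8 higher and 2 lower under a trended and robust variance. It was 5 higher and 0 lower when all probe sets were tested. Socs3, a feedback inhibitor of JAK kinases, rose from 5.17 ± 0.14 to 7.76 ± 0.15 (limma adjusted p = 3.61e-06). Usp18, which also belongs to the ISRE-driven list and limits signalling at the type I receptor, Pias4 (1.02) and Tnfaip3 (1.42) rose as well. Socs1, shared with the IRF1-linked list, did not pass.

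**Figure D3:**
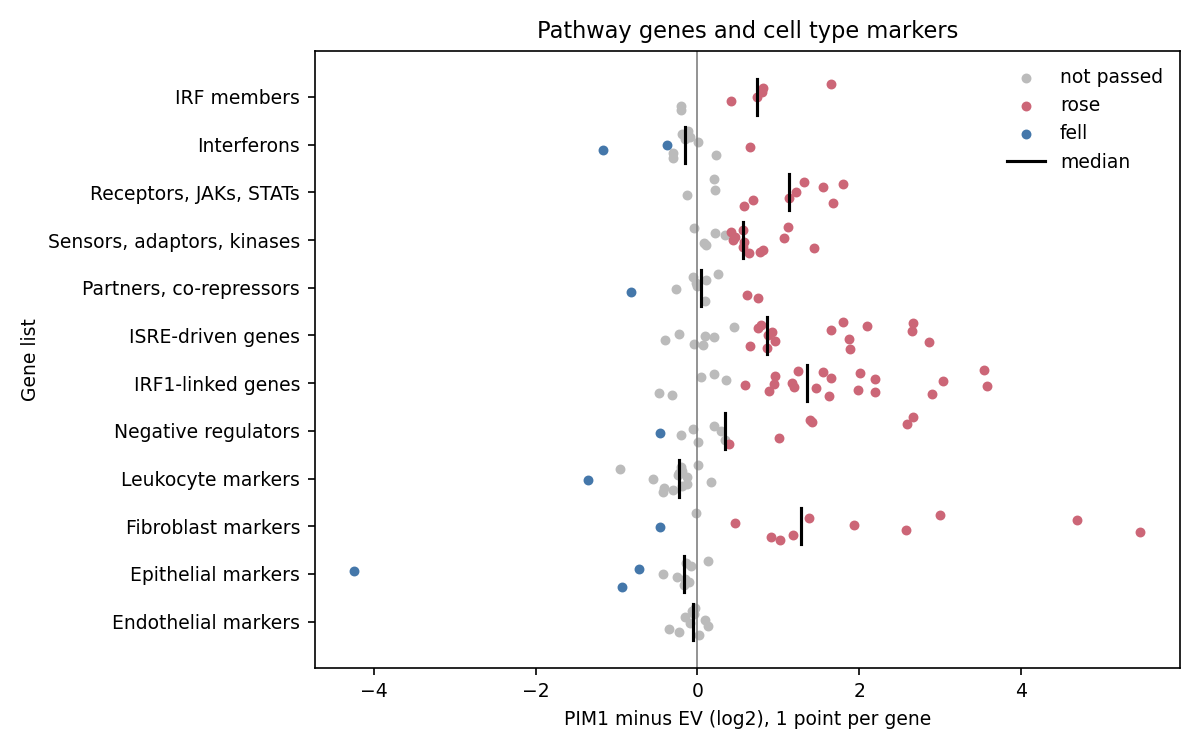
Difference between PIM1 and EV (log2) of each measured gene, by list; red points rose, blue points fell and grey points did not pass adjusted p under 0.05, and black lines mark medians. Receptor, sensor, ISRE-driven and IRF1-linked genes lie mostly to the right of 0 with the IRF genes, interferon and leukocyte marker genes centre slightly to the left, and fibroblast markers have a median of 1.28.

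The genes with the profile most like that of each factor that rose were found by the smallest root mean square distance over the 6 arrays, after each gene's own mean was removed. For Irf9 these were Abcd2, a peroxisomal transporter (distance 0.0998), and Stat6, the signal transducer of interleukin-4 (distance 0.104), which rose by 1.69 and 1.56. For Irf7 they were Decr2 and Gmppa, for Irf3 Alg2 and Zfp35, for Irf2 Etl4 and Repin1, and for Irf1 Agtrap and Dnajc30, of which Dnajc30 did not pass in 2 of its 14 alternatives. No other IRF was among the nearest 2 of any factor. With 2 groups of 3 arrays such likeness rests mostly on the size of the group difference.

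The 7 genes lie on 5 chromosomes and have different neighbours. Whether a rise extended along the chromosome was not tested. The nearest measured protein-coding genes on both sides of the 5 factors that rose were 10 genes, and 0 of them passed, with differences from -0.17 to 0.36. The highest of these, 0.36, was that of Phrf1 beside Irf7, which passed in 3 of its 14 alternatives. Of these neighbours, Il5, Helt, Enpp6, Cdhr5 and Rec8 lay under the EV array median of 3.50, where a missing call says little. Among all genes 27.0% passed the same test. One place further out, 3 of 10 genes rose and 1 fell. The one with the largest rise was Psme2 near Irf9, a proteasome activator gene of antigen presentation, which rose by 0.96 (limma adjusted p = 0.0328), and this call was lost in 6 of 14 alternatives. Around Irf4 and Irf8 3 of the 4 nearest genes passed. Foxf1, a forkhead factor gene beside Irf8, rose by 2.04, and Cox4i1 on its other side, a subunit of cytochrome c oxidase, fell by 1.25 (limma adjusted p = 1.71e-05 and 1.08e-04). Dusp22, a phosphatase gene beside Irf4, rose by 1.33 (limma adjusted p = 1.92e-04). These neighbours were named after their values were seen.

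**Figure D4:**
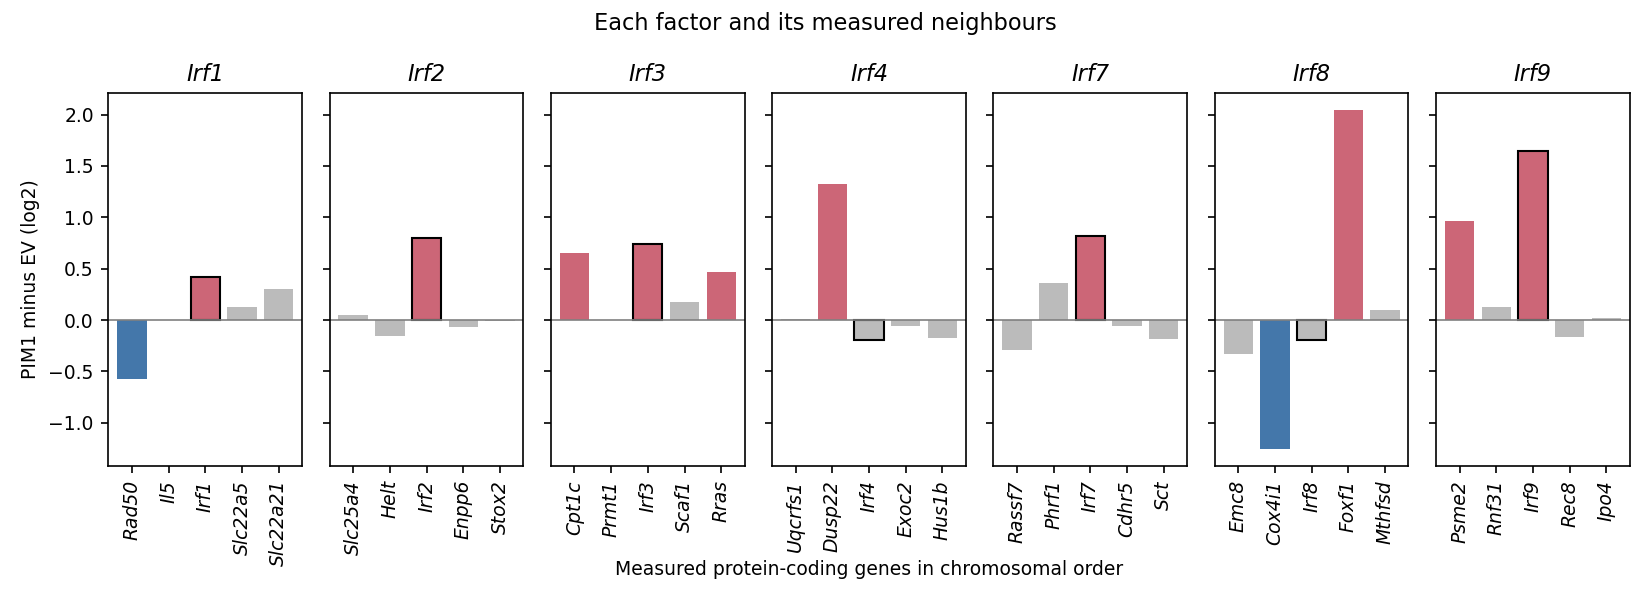
Difference between PIM1 and EV (log2) of each factor (outlined bar) and of the 2 nearest measured protein-coding genes on either side, in chromosomal order; red bars rose, blue bars fell and grey bars did not pass adjusted p under 0.05. The bars directly beside Irf1, Irf2, Irf3, Irf7 and Irf9 are grey, with red or blue bars one place further out near Irf1, Irf3 and Irf9, whereas Irf4 and Irf8 are grey bars beside genes that changed.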

How the data were processed

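RNA of 6 samples was measured on Affymetrix whole-transcript arrays, labelled with the GeneChip WT PLUS kit per the labels' protocols. The authors deposited 1 value per probe set and array, and these were taken as log2 signals from their range. The submitters' processing notes list Affymetrix Expression Console. The log base, background correction, summarization and normalization are unstated in the sources used here. No further scaling was applied to the deposited log2 values. Precision is limited by the number of arrays, 3 in each group, and detection calls were not used.

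Groups came from the sample titles. Probe sets with exactly 1 gene symbol (23521 of 41345) were kept, and for a gene with more than 1 the brightest over the 6 arrays was tested. Of these probe sets 23328 matched RefSeq (GRCm38.p6) by Entrez identifier, which was used for names, gene order and promoter sequences. All 8 genes matched a promoter there.

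PIM1 and EV were compared in R 4.3.3 with limma 3.58.1, by lmFit and eBayes with no term beside the group. Tests were two-sided at a threshold of 0.05 after Benjamini-Hochberg adjustment over 22180 genes. On simulated data of 22180 genes for this comparison, log2 changes of 0.5, 1 and 2 were found for 20.9% of 67, 70.1% of 67 and 92.4% of 66 changed genes, with 2 false among 124 calls. Only 200 genes were changed in the simulation, whereas 27.0% of genes passed in the data, so these rates need not hold there. The members and lists were chosen with earlier results of these data known. The text names all members, Pim1, Stat2, the 2 to 4 genes of each pathway list with the smallest p, and the 2 genes nearest in profile to each member that passed. Spi1, Ifng, the Irf2bp genes, the cell type markers and the chromosomal neighbours were named besides. So were Socs1 and other genes of the ISRE-driven, IRF1-linked and sensor lists that did not pass. Alternatives were a trended and robust variance, 3 other normalizations (quantile, median centring, cyclic loess), the brighter genes alone, averaged probe sets, a test of every probe set, a replicate block, and leaving out each array.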

Additional observations from a re-analysis of the deposited data

How the results depend on the processing

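Of the 7 measured factors, Irf2, Irf3, Irf7 and Irf9 passed in all 14 alternatives run, with differences of 0.66 to 0.90, 0.63 to 0.84, 0.70 to 0.92 and 1.53 to 1.75. Irf1 passed in 12, and it did not after quantile normalization (0.29, adjusted p = 0.0504) or without PIM1 replicate 2, where the call moved with no matching change of the value. With single arrays left out the Irf1 difference ran from 0.39 to 0.46. Irf4 and Irf8 stayed negative and did not pass in the 13 alternatives that kept them (-0.25 to -0.063 and -0.32 to -0.055). Testing the brighter genes alone removed both. The upstream sensor list had 6 of 17 members passing when all probe sets were tested and 5 to 9 when 1 array was left out, against 12 as reported. The interferon list had 1 of 3 passing among the brighter genes. The counts of the other 5 pathway lists stayed within 1.5 times. The marker lists were recomputed as an addition after seeing the data. The leukocyte markers that passed, 1 as reported, were 2 of 3 among the brighter genes, 3 with the replicate block and 1 to 2 with single arrays left out. The endothelial markers that passed were 0 to 1 with single arrays left out, and none was among the brighter genes. The fibroblast and epithelial counts stayed within 1.5 times. The Spi1 difference changed sign, without passing, after quantile normalization (0.033), median centring (0.041) and cyclic loess (0.036), and ran from -0.15 to 0.037 when 1 array was left out. With the replicate number as a block 5321 genes passed, and the same number of factors, 5. Whether the numbers pair the samples is not known. Deviations of same-numbered arrays correlated at 0.056, -0.031 and 0.0087, and those of differently numbered arrays at -0.063 to 0.055. Such values cannot decide whether samples were handled in pairs. Causes of these changes were not tested. Signal over background was not measured, which limits statements on low signals such as those of Irf4, Irf8 and Ifnb1.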
